A study of Mus musculus with 36 samples.

Results

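The reactive astrocyte genes are 36 genes that mark the response of astrocytes to injury, taken by symbol from a gene count table of 55487 genes. They fall into 3 published classes: 13 PAN genes (Lcn2, Steap4, S1pr3, Timp1, Hspb1, Cxcl10, Cd44, Osmr, Cp, Serpina3n, Aspg, Vim and Gfap), 11 A1 genes (H2-T23, Serping1, H2-D1, Ggta1, Iigp1, Gbp2, Fbln5, Fkbp5, Psmb8, Srgn and Amigo2) and 12 A2 genes (Clcf1, Tgm1, Ptx3, S100a10, Sphk1, Cd109, Ptgs2, Emp1, Slc10a6, Tm4sf1, B3gnt5 and Cd14). The study's text gives Ptx3 as an example of a PAN gene, while it is counted here as A2. All 36 genes were found, each as 1 gene. They were measured by bulk RNA-seq of retina, unmyelinated optic nerve (UON, the nerve head) and myelinated optic nerve (MON, the next segment behind the myelin transition) of C57BL/6 mice aged 2 to 4 months. The groups were bilaterally naïve mice (0D), mice at 3D and 2W after unilateral optic nerve crush, and a glaucoma group, in which microbeads had been injected into the anterior chamber of 1 eye to raise its pressure, at 3D, 2W and 6W. Tissue of 2 females made 1 library of each of the 18 groups and tissue of 2 males the other, so that every group has n = 2 pools and the effects of sex and of the individual mice cannot be told apart. The 3 tissues of a group came from the same mice, and all comparisons with naïve in a tissue share the same 2 naïve libraries. Sham operated mice were not among the groups, so surgery and injury cannot be told apart.

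Astrocytes are the main glia of the UON, where no myelin is made, and share the MON with oligodendrocytes. The UON libraries still held RNA of myelin genes, as given below. After injury they raise intermediate filaments such as Gfap and Vim, secrete protease inhibitors and acute phase proteins, and respond to cytokines that signal through the gp130 receptor and STAT3. The PAN genes rise after several kinds of injury. The A1 genes were named in astrocytes of mice with systemic inflammation, a state that Il1a, Tnf and C1q from microglia can induce, and many of them belong to the interferon response, antigen presentation or the control of complement. The A2 genes were named after ischaemia and include cytokines, enzymes of prostaglandin and sphingolipid signalling and membrane proteins. None of the classes is exclusive to astrocytes: Cd14, Srgn, Cd44, H2-D1 and Timp1 are also made by microglia, macrophages, vascular cells or fibroblasts.

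Levels within a gene are given as CPM (counts per M counts of the normalized library, M for mega), as a pair of values with the female pool first. Levels between genes are given in FPKM, which is per length of transcript. A member was called changed at an edgeR adjusted p under 0.05, adjusted over all genes tested, together with a log2 fold change over 1 up or down, and "rose", "fell" and "passed" are used only for such calls. The share of all tested genes that met the same limits is given beside the first count in each comparison. Where members are counted at an unadjusted p or by DESeq2, the shares of all genes at those limits are given as well, DESeq2's over the genes it tested without the filter on low counts. In MON after crush these were 38991 genes, against 19988 in edgeR. DESeq2's shares thus include many genes with low counts, may be low beside the members and are not comparable with edgeR's. Calls are those of the main edgeR fits, described at the end, unless another setting is named. Where the pools of groups are said not to overlap, these are the same libraries as in the test. This gives no separate support, and the share of all genes with such pools was not counted. H2-D1, H2-T23, Gbp2, Iigp1 and Serpina3n have close relatives in the mouse genome, so their counts are less certain than those of single genes. In Gencode M21, 9 members share exon bases with another gene, Psmb8 most with 14.7% of its exon bases, and the strand setting of the counting is not given in the sources used here.

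Libraries held 16.2 to 78.1 M estimated counts (median 43.3 M). Mitochondrial genes held 0.02% of counts in the male MON pool at crush 3D and 0.01% in that at glaucoma 3D, the lowest of all libraries. The female pools of these groups had 0.44% and 1.16%. The part of this in the members' values was not tested. The labelled tissues were checked against marker genes. The summed CPM of 12 oligodendrocyte and myelin genes was 167238 and 124994 in naïve MON, 29041 and 22139 in naïve UON and 113 and 104 in naïve retina, while photoreceptor genes summed to 70879 and 70047 in retina and 104 and 78.7 in UON. The male UON pool at crush 2W stood apart, with a myelin sum of 3403 against 10094 to 44563 in the other 11 UON libraries. It also had an interferon response sum of 4120.2, close to the 3702 of the female naïve UON pool and above the 1055 to 2179 of the other 10 UON libraries. Some interferon-inducible members also differed between the naïve UON pools. In UON, Cxcl10, an interferon-inducible chemokine, had 204 CPM in the female naïve pool and 38.8 in the male naïve pool, and Iigp1, an interferon-inducible GTPase, had 86.9 and 11.5 CPM. The MHC class I gene H2-D1 was instead lower in the female pool, at 1189 and 1561 CPM. Cxcl10 also had 189 CPM in the female UON pool at glaucoma 3D, against 44.7 in the male pool.

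**Figure D1:**
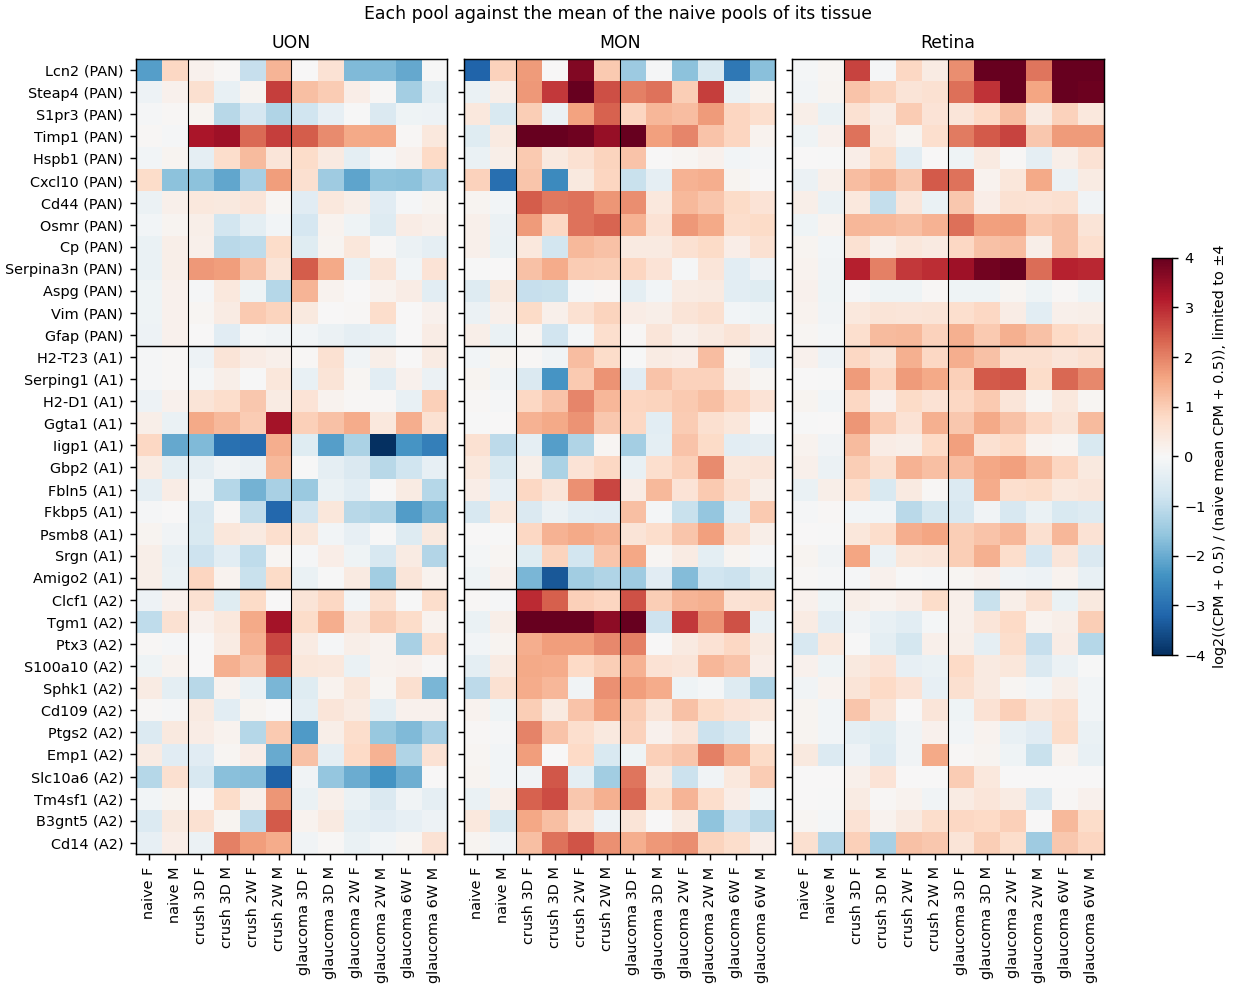
Heat map of the 36 members (rows, by class) in every library of UON, MON and retina (columns, female pool F and male pool M). Colour is the log2 ratio of a pool's CPM + 0.5 to the mean CPM + 0.5 of the naïve pools of that tissue, limited to ±4. Timp1 is red in both pools of UON and MON at crush 3D and 2W, Tgm1 in MON after crush and Serpina3n in all injured retina pools, while Cxcl10 and Iigp1 already differ between the naïve UON pools.

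Before injury most members had their highest level in the nerve and their lowest in retina. In naïve UON, 32 of 36 members were higher than in retina and 1, Amigo2, was lower (31.7% of all tested genes passed). In naïve MON, 27 members were higher than in retina and Amigo2 was again lower (27.6% of all tested genes). Between the nerve regions, 13 members were higher in UON than in MON and 1, Ggta1, was lower (9.63% of all tested genes). The 14 members were 4 of 13 PAN, 5 of 11 A1 and 5 of 12 A2 genes, with class medians of 1.15, 0.98 and 1.40 on the log2 scale against -0.06 for all genes tested.

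The intermediate filament gene Gfap was the most abundant member in the nerve, at 4316 ± 615 FPKM in UON (mean ± SD, n = 2 pools), 3092 ± 469.8 in MON and 6.91 ± 0.362 in retina. Vim, the other filament gene, followed at 1426 ± 183, 564 ± 145 and 34.3 ± 4.06 FPKM. Neither filament gene passed between UON and MON, with log2 differences of 0.41 (edgeR adjusted p = 0.491) and 1.15 (edgeR adjusted p = 0.0522). Next in UON came S1pr3, a receptor of sphingosine 1-phosphate, at 657 ± 6.07 FPKM, then H2-D1, an MHC class I chain, at 520.2 ± 79.5 and Serping1, the C1 inhibitor of the complement cascade, at 441 ± 3.57. H2-D1 and Serping1 lay about 1 SD of H2-D1 apart, and with 2 pools no order between neighbours was tested.

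The largest difference between the nerve regions was that of Fbln5, a protein of elastic fibres, at 127 and 200.1 CPM in UON and 7.5 and 4.87 in MON (log2 fold change 4.61, standard error 0.37, edgeR adjusted p = 0.00139). Sphk1, the kinase that makes sphingosine 1-phosphate, had 48.7 and 29.5 CPM in UON and 2.16 and 7.76 in MON (log2 fold change 3.14, standard error 0.63, edgeR adjusted p = 0.0242). S1pr3, a receptor of its product, had 3644 and 3891 CPM in UON and 822 and 405 in MON (log2 fold change 2.67, standard error 0.33, edgeR adjusted p = 0.00424). For all 3 genes both UON pools lay above both MON pools. Osmr, the receptor of oncostatin M, was also higher in UON, at 203 and 234 against 40.1 and 29.6 CPM (log2 fold change 2.60, standard error 0.25, edgeR adjusted p = 0.00204). So was the ferroxidase Cp, at 657 and 928 against 186 and 134 CPM (log2 fold change 2.28, standard error 0.28, edgeR adjusted p = 0.0042). Timp1 had 31.5 and 29.7 CPM in UON and 4.82 and 9.02 in MON. The remaining 7 members higher in UON were Tm4sf1, Ptx3, Gbp2, Serping1, Cd109, S100a10 and H2-T23, with log2 differences of 1.25 to 1.97.

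Ggta1, a galactosyltransferase that acts on glycans, was the exception, at 3.54 and 2.39 CPM in UON and 13.4 and 13.9 in MON (log2 fold change -2.26, standard error 0.47, edgeR adjusted p = 0.028). Aspg and Serpina3n also had higher values in MON, with Serpina3n, an inhibitor of serine proteases, at 410.5 and 578 CPM in UON and 887 and 916 in MON, but neither passed (edgeR adjusted p = 0.0524 and 0.0722). Amigo2, an adhesion protein of neurons, was the retinal member, at 21.7 ± 0.762 FPKM in retina, 1.14 ± 0.338 in UON and 1.25 ± 0.283 in MON. Tgm1, B3gnt5 and Lcn2 passed in none of the 3 regional comparisons, and Slc10a6 was listed at 0 in both naïve retina pools. Beside these differences, naïve UON differed from naïve MON in its other cells. All 12 oligodendrocyte and myelin genes were lower and 5 of 12 fibroblast, sclera and meninges genes were higher in UON, where that list summed to 3059 and 3286 CPM against 801 and 702. In bulk tissue, a different number of cells of a type and a different amount of RNA per cell cannot be told apart. With the 4 nerve libraries left out in turn, Ptx3 and Ggta1 lost their calls in 3 of 4 fits, S100a10 and Timp1 in 2, and H2-T23 and Cd109 in 1 (without the male UON pool), while Fbln5, S1pr3, Osmr, Cp, Sphk1, Serping1, Tm4sf1 and Gbp2 kept theirs in all 4 fits. In 1 fit over all 36 libraries Serping1, Timp1, Ptx3, S100a10 and Cd109 lost their calls, at edgeR adjusted p = 0.053 for Timp1 to 0.123 for Ptx3. The same fit called Vim as higher and Aspg as lower in UON than in MON (edgeR adjusted p = 0.00721 and 0.0447). The fewest members passed without the female MON pool and the most without the male MON pool, with the shares of all genes in those fits not given.

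**Figure D2:**
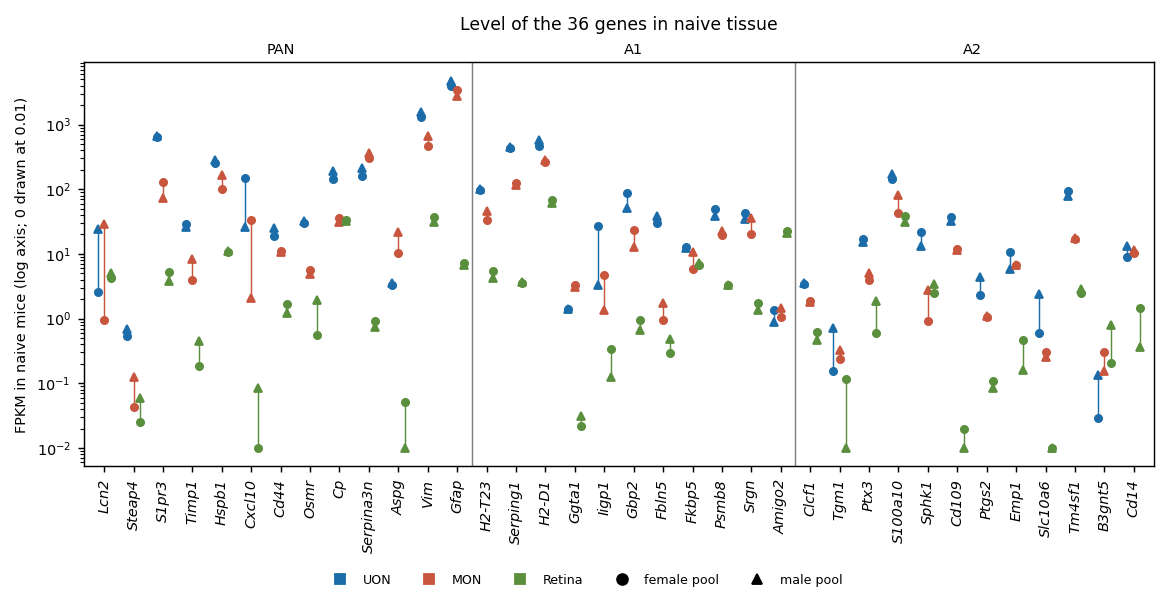
Deposited FPKM (log axis, with 0 drawn at 0.01) of the 36 members in naïve UON (blue), MON (red) and retina (green), circles for the female and triangles for the male pool, joined by a line. Retina lies lowest for most members. Amigo2 is highest in retina, and the retina values of Lcn2, Steap4, Cp, Fkbp5, Sphk1 and B3gnt5 overlap or exceed those of a nerve region. Lcn2, Cxcl10 and Iigp1 show wide gaps between pools of 1 nerve region.

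After crush, members passed the test mainly in MON. At 3D, 9 of 36 members rose in MON and none fell (4.26% of all tested genes passed). They were 6 of 12 A2 genes (Tgm1, Clcf1, Tm4sf1, Cd14, Ptx3 and S100a10), 2 of 13 PAN genes (Timp1 and Cd44) and 1 of 11 A1 genes (Ggta1). The class medians were 1.88 for A2, 0.73 for PAN and 0.03 for A1 genes on the log2 scale, against 0.00 for all genes tested. DESeq2 called 16 members higher (8 A2, 5 PAN and 3 A1 genes) and 2 A1 genes, Amigo2 and Serping1, lower (6.12% of all genes it tested).

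Tgm1, a transglutaminase that crosslinks proteins, had the largest change. It went from 0.716 and 1.2 CPM in naïve MON to 97.1 and 127 at 3D (log2 fold change 7.09, standard error 0.82, edgeR adjusted p = 0.00987). Timp1, an inhibitor of matrix metalloproteinases, went from 4.82 and 9.02 to 143 and 133 CPM (log2 fold change 4.43, standard error 0.42, edgeR adjusted p = 0.00737). The pools of the crushed and naïve nerves were far apart for both genes. Clcf1, a cytokine of the gp130 family, had 5.48 and 4.99 CPM in naïve and 45.2 and 29.7 in crushed MON (log2 fold change 2.91, standard error 0.35, edgeR adjusted p = 0.0114). Tm4sf1, a membrane protein well known from endothelium, had 37.8 and 52.5 CPM in naïve and 231 and 276 in crushed MON (log2 fold change 2.59, standard error 0.28, edgeR adjusted p = 0.00822). Cd44, the receptor of hyaluronan, had 43.7 and 37.5 CPM in naïve and 219 and 178 in crushed MON (log2 fold change 2.37, standard error 0.27, edgeR adjusted p = 0.00987). The log2 fold changes of the other 4 were 1.87 for Cd14, a coreceptor of bacterial lipopolysaccharide on myeloid cells, 1.70 for the secreted pentraxin Ptx3, 1.63 for the annexin partner S100a10 and 1.57 for Ggta1 (edgeR adjusted p = 0.0482, 0.0265, 0.0326 and 0.0418). For all 9 genes both crushed pools lay above both naïve pools, which adds no support to calls made on the same libraries.

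Several hallmark genes did not pass in MON at 3D. Gfap had 12690.5 and 8980.0 CPM in naïve and 11436 and 6347 in crushed MON, with overlapping pools (log2 fold change -0.20, standard error 0.51, edgeR adjusted p = 0.867). Serpina3n had 887 and 916 CPM in naïve and 2027 and 2497 in crushed MON, and its pools did not overlap (log2 fold change 1.41, standard error 0.35, edgeR adjusted p = 0.0709). Osmr, Ptgs2 (the inducible cyclooxygenase) and Psmb8 (an immunoproteasome subunit) lay just outside the limit, at edgeR adjusted p = 0.0572, 0.0574 and 0.0578. Of the A1 genes, Serping1 had 296 and 250.5 CPM in naïve and 181 and 52.7 in crushed MON (log2 fold change -1.23, edgeR adjusted p = 0.27) and Amigo2 had 4.17 and 5.41 CPM in naïve and 0.993 and 0 in crushed MON. Both crushed pools lay below both naïve pools for these 2 genes.

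At 2W, 9 members were again higher than in naïve MON and none was lower (2.72% of all tested genes). They were 4 A2 genes (Tgm1, Cd14, Ptx3 and Tm4sf1), 3 PAN genes (Timp1, Cd44 and Osmr) and 2 A1 genes (Fbln5 and Psmb8), and 6 of the 9 had also been called at 3D. The class medians were 2.02 for PAN, 1.12 for A2 and 1.03 for A1 genes, against 0.05 for all genes tested. Osmr had 160.0 and 175 CPM at 2W (log2 fold change 2.34, standard error 0.33, edgeR adjusted p = 0.0229) and Fbln5 had 23.2 and 41.8 CPM (log2 fold change 2.44, standard error 0.45, edgeR adjusted p = 0.0403). Psmb8 went from 45.1 and 44.6 to 129 and 117 CPM (log2 fold change 1.50, standard error 0.28, edgeR adjusted p = 0.0415). Both 2W pools lay above both naïve pools for these 3 genes. Timp1 had 109.9 and 83.2 CPM at 2W and Tgm1 had 77.1 and 17 CPM, the male pool being lower than at 3D. DESeq2 called 17 members higher at 2W (7 PAN, 5 A1 and 5 A2 genes) and none lower (4.43% of all genes it tested).

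Between 3D and 2W after crush no member passed in MON (0.0750% of all tested genes), with 11 members at an unadjusted p under 0.05 (12.5% of all genes) and 7 called by DESeq2 (2.72%). The medians of 2W over 3D were 1.01 for A1, 0.85 for PAN and -0.98 for A2 genes, against 0.00 for all genes tested. Clcf1 had 45.2 and 29.7 CPM at 3D and 10.6 and 9.81 at 2W (log2 fold change -1.90, standard error 0.34, edgeR adjusted p = 0.0971). Serping1 had 181 and 52.7 CPM at 3D and 567 and 951 at 2W (log2 fold change 2.80, standard error 0.61, edgeR adjusted p = 0.132). The 2 times did not overlap for either gene. The members DESeq2 called were Fbln5, S1pr3, Serping1 and Cp as higher and Clcf1, Tm4sf1 and Slc10a6 as lower at 2W, and with 1 of the 4 libraries left out edgeR called 1 to 11 members, 11 without the female crush 2W pool. Where 1 pool of a group is left out, the other is assumed to vary as the remaining groups do, and the share of all genes called is not given.

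The MON calls over naïve rested on the naïve libraries. Without the female naïve MON pool, which was the deeper one at 78.1 M counts against 17.8 M, none of the members passed at 3D or 2W. Fewer members also passed at both times without the male naïve pool, and more with 1 crushed pool left out. The shares of all genes in these fits are not given, so the shift cannot be read as a result about the members. Marker genes of the cells of MON also differed with crush. The summed CPM of 12 astrocyte marker genes was 10161 and 7482 in naïve MON, 5119 and 2632 at 3D and 8114 and 11822 at 2W, with 1 of the 12, the connexin Gjb6, lower at 3D by edgeR and 5 by DESeq2. Microglial markers summed to 1478 and 1393 CPM in naïve MON, 2669 and 2997 at 3D and 6281 and 3932 at 2W, with 2 of 12 (Itgam and Trem2) higher at 3D and 5 at 2W. Neutrophil and monocyte markers summed to 25.2 and 26.1 CPM in naïve MON, 89.3 and 137 at 3D and 146 and 117 at 2W, and myelin genes to 167238 and 124994 CPM in naïve MON, 88397 and 73882 at 3D and 47592 and 60861 at 2W. Their part in the members' values was not tested.

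**Figure D3:**
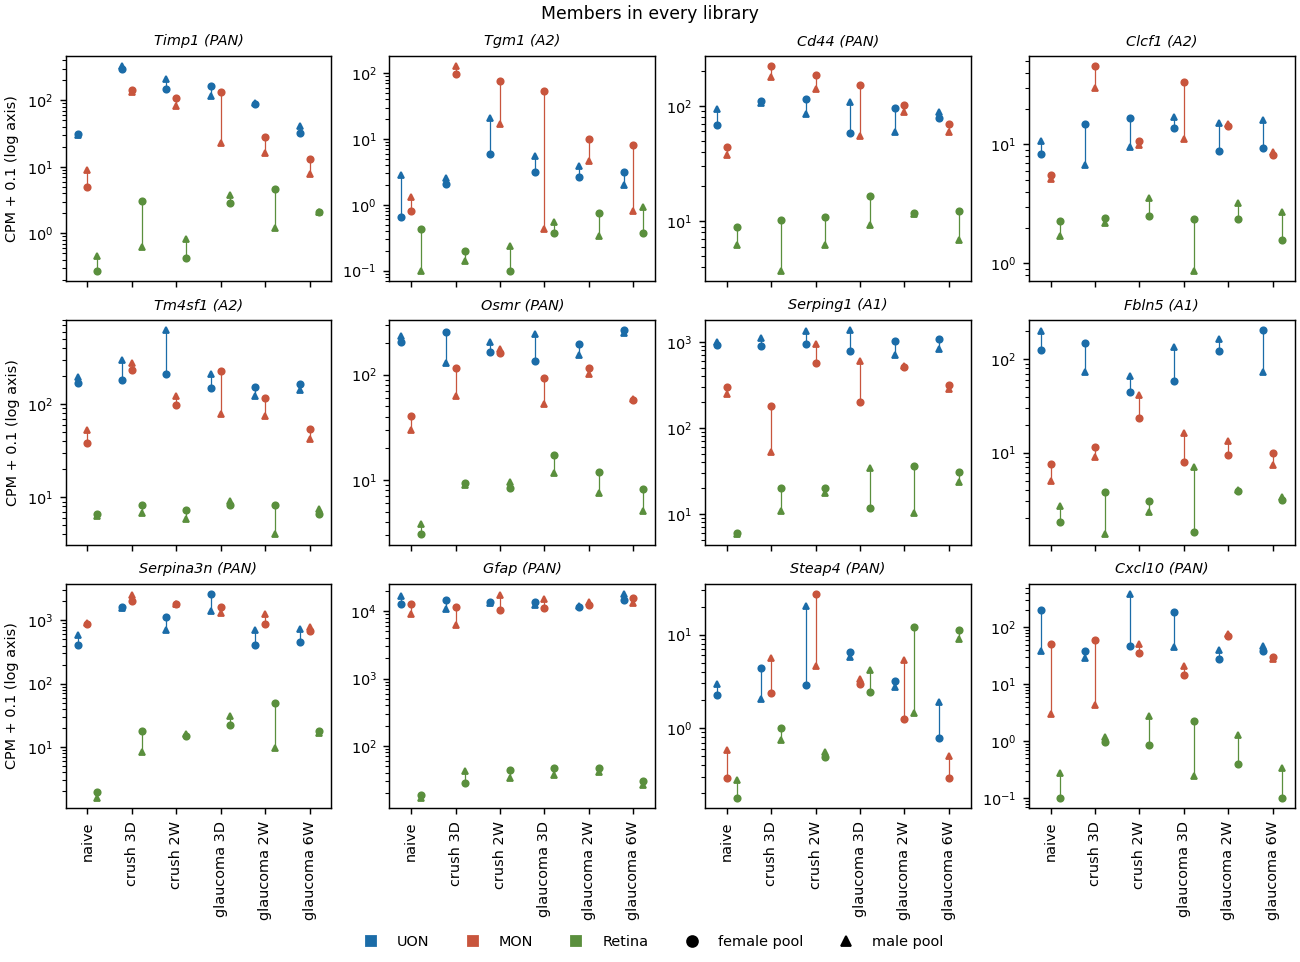
CPM + 0.1 (log axis) of 12 members in every library, by group, in UON (blue), MON (red) and retina (green), circles for the female and triangles for the male pool of a group. Tgm1, Clcf1, Cd44 and Tm4sf1 are raised in both MON pools at crush 3D, Timp1 in MON and UON, and the MON pools of glaucoma 3D lie far apart for Tgm1 and Timp1.

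**Figure D4:**
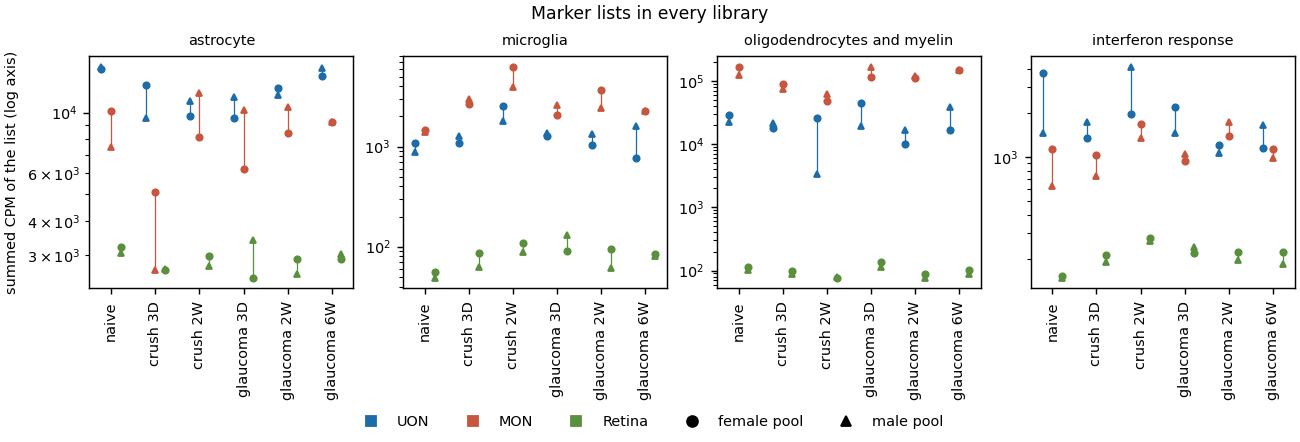
Summed CPM (log axis) of 4 gene lists in every library, with colours and symbols for tissue and pool as in the plot of 12 members. Astrocyte genes in MON are lowest at crush 3D, microglial genes in MON are highest at crush 2W, and the male UON pool at crush 2W has the lowest myelin sum of the nerve libraries.

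The promoters of 4 members called in MON after crush, and of Gfap, are shown with the letters of 3 short motifs to which transcription factors of injury and cytokine signalling are known to bind. The windows are from RefSeq on GRCm38.p6 and run from 250 bases before to 50 bases after a transcript start, and 30 of the 36 members had at least 1, 39 windows in all. Serping1, Iigp1, Clcf1, S100a10, Cd109 and Cd14 had no entry. Capitals mark TTCNNNGAA, bound by STAT factors, GAAANNGAAA, the interferon-stimulated response element (ISRE), and TGANTCA, bound by AP-1, on either strand. Timp1 and Tgm1 are printed for their large MON changes, Osmr and Psmb8 as a PAN and an A1 gene called in MON at 2W, and Gfap as the hallmark filament gene.
Timp1 (chrX:20869916-20870215, plus strand): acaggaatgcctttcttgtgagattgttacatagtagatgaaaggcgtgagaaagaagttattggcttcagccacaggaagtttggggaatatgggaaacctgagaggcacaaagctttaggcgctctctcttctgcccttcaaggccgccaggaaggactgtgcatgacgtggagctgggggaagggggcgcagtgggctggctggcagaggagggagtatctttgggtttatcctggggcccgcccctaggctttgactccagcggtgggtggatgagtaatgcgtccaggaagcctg
Tgm1 (chr14:55713443-55713742, minus strand): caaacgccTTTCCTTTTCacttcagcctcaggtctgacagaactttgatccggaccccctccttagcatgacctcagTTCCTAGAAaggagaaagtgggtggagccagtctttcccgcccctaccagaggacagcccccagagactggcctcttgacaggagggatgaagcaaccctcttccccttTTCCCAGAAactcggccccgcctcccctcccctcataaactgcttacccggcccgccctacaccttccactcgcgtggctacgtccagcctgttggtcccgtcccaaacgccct
Osmr (chr15:6874264-6874563, minus strand): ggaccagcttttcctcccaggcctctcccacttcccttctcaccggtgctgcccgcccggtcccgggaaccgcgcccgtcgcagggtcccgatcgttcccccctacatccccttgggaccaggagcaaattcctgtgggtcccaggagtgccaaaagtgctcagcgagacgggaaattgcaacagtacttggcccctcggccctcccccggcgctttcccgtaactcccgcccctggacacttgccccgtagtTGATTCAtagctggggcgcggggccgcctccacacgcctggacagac
Psmb8 (chr17:34197945-34198244, plus strand): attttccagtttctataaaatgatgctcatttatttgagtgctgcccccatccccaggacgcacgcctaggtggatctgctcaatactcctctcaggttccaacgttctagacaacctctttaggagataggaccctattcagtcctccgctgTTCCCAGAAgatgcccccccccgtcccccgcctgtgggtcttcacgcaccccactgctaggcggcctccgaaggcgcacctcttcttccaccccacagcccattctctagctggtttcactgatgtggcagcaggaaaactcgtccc
Gfap (chr11:102897151-102897450, minus strand): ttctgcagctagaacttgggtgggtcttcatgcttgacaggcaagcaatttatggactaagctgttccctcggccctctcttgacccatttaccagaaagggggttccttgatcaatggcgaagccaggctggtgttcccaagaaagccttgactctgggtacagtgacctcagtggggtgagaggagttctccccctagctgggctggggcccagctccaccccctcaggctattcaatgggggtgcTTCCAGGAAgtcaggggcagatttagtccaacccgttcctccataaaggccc

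Tgm1 has 2 windows in the table. The one printed holds 2 STAT motifs and 1 ISRE, and the other, at a start further downstream, holds none of the 3 motifs. Psmb8 and Gfap hold 1 STAT motif each, Osmr holds 1 AP-1 motif and the Timp1 window holds none of the 3. Counted per gene, with a match in any of its windows, the STAT motif was in 6 of 30 members (Steap4, Gfap, Psmb8, Tgm1, Sphk1 and Emp1) against 9.55% of all 27025 genes in the table. The ISRE was in 7 of 30 (Cxcl10, H2-T23, Gbp2, Fbln5, Srgn, Tgm1 and Tm4sf1) against 3.99%, and AP-1 in 6 of 30 (Cxcl10, Osmr, Cp, Gbp2, Sphk1 and Emp1) against 8.97%. Per window, each motif was in 7 of the members' 39, against 8.3%, 3.44% and 7.81% of all 32851. A match of letters is a description and not a binding site.

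In UON no member passed after crush, at 3D (0.00% of all tested genes) or at 2W (0.0281%). At an unadjusted p under 0.05 there were 2 members at 3D (3.07% of all genes) and 11 at 2W (9.27%), and DESeq2 called 2 (0.560% of all genes) and 5 (1.37%). At 3D the median was 0.23 for PAN, -0.05 for A1 and 0.25 for A2 genes, and at 2W it was 0.82 for PAN, 0.24 for A1 and 0.67 for A2 genes, against 0.00 and -0.09 for all genes tested. Timp1 had the largest fold change of the members at 3D, with 31.5 and 29.7 CPM in naïve UON, 302 and 326 at 3D (log2 fold change 3.36, standard error 0.33, edgeR adjusted p = 0.0986) and 150.2 and 209 at 2W (log2 fold change 2.52, standard error 0.32, edgeR adjusted p = 0.125). Serpina3n had 410.5 and 578 CPM in naïve UON and 1642 and 1586 at 3D (log2 fold change 1.71, standard error 0.39, edgeR adjusted p = 0.753). For both genes the crushed pools lay above the naïve pools at each time, and DESeq2 called both at 3D. The male pool of 2W, which stood apart as given above, had the highest value of all 12 UON libraries for 14 of the 36 members (4 PAN, 4 A1 and 6 A2 genes). The share of all genes with their highest UON value in that pool was not counted, so this count is not a result about the members. Among the 14 members, at 2W, were Ptx3 at 83.6 and 204 CPM, S100a10 at 308 and 729 and Tgm1 at 5.75 and 21. DESeq2 called these 3 genes, Timp1 and Ggta1 at 2W. Between 3D and 2W in UON no member passed (0.00468% of all tested genes), with 5 at an unadjusted p under 0.05 (5.50% of all genes) and 1, Ptx3, called by DESeq2 (0.954%).

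The direct test of UON response minus MON response called no member after crush at 3D (0.0120% of all tested genes) or at 2W (0.00%), with 8 and 9 members at an unadjusted p under 0.05 (6.93% and 10.9% of all genes) and 4 called by DESeq2 at each time (0.677% and 1.44%). All of the members DESeq2 called had the larger response in MON: Tgm1, Clcf1, Cd44 and Tm4sf1 at 3D, and Fbln5, S1pr3, Osmr and Cd44 at 2W. The interaction on the log2 scale was -6.39 for Tgm1 at 3D (standard error 1.19, edgeR adjusted p = 0.25). Fbln5 had values on opposite sides of naïve, with both crush 2W pools of UON at 44.1 and 65.6 CPM below the naïve 127 and 200.1, and both of MON above naïve. Its interaction at 2W was -4.02 (standard error 0.62, edgeR adjusted p = 0.146), and with the mouse pool as a block, since the regions came from the same mice, it passed at an edgeR adjusted p of 0.018. The block also brought Osmr past the limit at 2W, at -2.58 (edgeR adjusted p = 0.0491). S1pr3 had the same pattern as Fbln5, at 2347 and 1631 CPM in UON and 1878 and 3119 in MON at 2W against the naïve values given above (edgeR adjusted p = 0.151). Fbln5, S1pr3 and Osmr already differed between the naïve regions, as given above, by log2 differences of 2.60 to 4.61.

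In retina, 1 member passed after crush. Serpina3n rose from 1.82 and 1.44 CPM in naïve retina to 14.8 and 16 at 2W (log2 fold change 3.24, standard error 0.38, edgeR adjusted p = 0.0349), with 0.313% of all tested genes passing, and the call held with each of the 4 libraries left out. At 3D it had 18 and 8.08 CPM, and no member passed (0.0221% of all tested genes). Aspg, Tgm1 and Slc10a6 were too low to be tested, which left 33 members. Of the 12 PAN genes tested, 10 had an unadjusted p under 0.05 at 3D, as had 6 of 11 A1 and 1 of 10 A2 genes, all with values above naïve, against 6.34% of all genes. The class medians at 3D were 1.25, 0.74 and 0.24 in that order, and at 2W 0.87, 1.04 and 0.38. DESeq2 called 5 members at 3D (Serpina3n, Gfap, Osmr, Cxcl10 and Serping1), with 0.338% of all genes, and 8 at 2W (the same 5 with Psmb8, H2-T23 and Gbp2), with 0.867%.

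Gfap, which in retina marks astrocytes and stressed Müller glia, had 18.4 and 16.6 CPM in naïve retina, 28 and 42.5 at 3D and 44.1 and 33.8 at 2W (log2 fold change 1.12, standard error 0.23, edgeR adjusted p = 0.165 at 2W). Psmb8 had 5.2 and 5.09 CPM in naïve retina and 15 and 16.5 at 2W (log2 fold change 1.57, standard error 0.22, edgeR adjusted p = 0.0608). Serping1 had 5.92 and 5.71 CPM in naïve retina and 20 and 17.5 at 2W (edgeR adjusted p = 0.092). The crushed pools lay above the naïve pools for these 3 genes at both times. Müller glia markers summed to 4579 and 3426 CPM in naïve retina and 4511 and 4913 at 2W, and microglial markers to 55.6 and 48.8 in naïve retina, with 109.7 and 89.3 at 2W. Between 3D and 2W in retina no member passed (0.0485% of all tested genes), with 4 at an unadjusted p under 0.05 (6.37% of all genes) and 0 called by DESeq2 (0.404%).

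Glaucoma gave no call among the members in any tissue or at any time in the main edgeR fits. Some other edgeR settings called a few, as given at the end. In MON the shares of all tested genes were 0.00% at 3D, 0.00% at 2W and 0.00% at 6W, and 12, 14 and 3 members had an unadjusted p under 0.05, against 8.07%, 8.78% and 4.91% of all genes. DESeq2 called 6, 8 and 0 members, all higher than naïve, against 1.09%, 1.26% and 0.165% of all genes. The class medians at 3D were 0.61 for PAN, 0.42 for A1 and 1.36 for A2 genes, at 2W 0.69, 0.83 and 0.94, and at 6W 0.31, 0.16 and 0.49. DESeq2 called Cd14, Steap4, Clcf1, Timp1, Osmr and Tm4sf1 at 3D, and Osmr, Psmb8, H2-D1, Cd14, Steap4, S1pr3, Emp1 and Gbp2 at 2W.

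The 2 MON pools at glaucoma 3D differed from each other, also in their mitochondrial share as given above. Tgm1 had 53.4 CPM in the female pool and 0.325 in the male pool, against 0.716 and 1.2 in naïve MON. Timp1 had 135 and 22.4 CPM, Clcf1 33.2 and 11, Tm4sf1 225 and 77.7 and Cd44 149.7 and 54.7. For these 5 genes the female pool had the higher value. The female pool also had the lower astrocyte sum (6199 and 10232 CPM) and the lower myelin sum (112855 and 167374 CPM), and their part was not tested. At 2W the pools lay closer together for Tgm1, Timp1, Clcf1, Tm4sf1 and Cd44, but not for every member. Psmb8 had 65.1 and 72.9 CPM at 3D, closer than its values at 2W. Osmr had 40.1 and 29.6 CPM in naïve MON and 117 and 102 at 2W (log2 fold change 1.64, standard error 0.27, edgeR adjusted p = 0.232), and Psmb8 had 45.1 and 44.6 CPM in naïve MON and 97.5 and 141 at 2W (log2 fold change 1.38, standard error 0.26, edgeR adjusted p = 0.293). Both 2W pools were above both naïve pools for each. By 6W Timp1 had 12.9 and 7.67 CPM and Osmr 57.3 and 59.2, and between 6W and 3D no member passed (0.00% of all tested genes), with 7 at an unadjusted p under 0.05 (4.96% of all genes) and 4, Steap4, Sphk1, Serpina3n and Timp1, called lower by DESeq2 (0.457%).

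In UON the shares of all tested genes in glaucoma were 0.00%, 0.00% and 0.00% at 3D, 2W and 6W, and 3, 4 and 3 of 36 members had an unadjusted p under 0.05, against 3.87%, 3.57% and 2.01% of all genes. DESeq2 called 2, 1 and 1, against 0.325%, 0.191% and 0.0831%. Timp1 had 31.5 and 29.7 CPM in naïve UON, 165 and 116 at 3D, 87.6 and 89.8 at 2W and 31.9 and 41.5 at 6W (log2 fold change 2.21, standard error 0.28, edgeR adjusted p = 0.248 at 3D). Serpina3n had 2632 and 1427 CPM at 3D (log2 fold change 2.12, standard error 0.43, edgeR adjusted p = 0.87) and 413 and 708 at 2W, where it overlapped the naïve pools. The DESeq2 calls were both genes at 3D, Timp1 at 2W and Fkbp5, a cochaperone of the glucocorticoid receptor, as lower at 6W, at 55 and 57.5 CPM in naïve UON and 11.7 and 15.5 at 6W (edgeR log2 fold change -2.08, edgeR adjusted p = 1). Gfap had 12817 and 16544 CPM in naïve UON and 13641 and 12375 at 3D, with 11386 and 12066 at 2W and 14759 and 18106 at 6W. Between 6W and 3D no member passed in UON (0.00% of all tested genes), with 4 at an unadjusted p under 0.05 (4.54% of all genes) and 4, Timp1, Serpina3n, Steap4 and Fkbp5, called lower by DESeq2 (0.337%). UON response minus MON response in glaucoma called no member at 3D (0.00%), 2W (0.00%) or 6W (0.00%), with 6, 12 and 1 at an unadjusted p under 0.05, against 5.86%, 6.18% and 3.10% of all genes. DESeq2 called 0, 3 (S1pr3, Osmr and Gbp2) and 0, against 0.138%, 0.276% and 0.0711%.

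In retina the shares of all tested genes in glaucoma were 0.00429% at 3D, 0.00% at 2W and 0.00858% at 6W. Of the 34 members tested (Aspg and Slc10a6 were too low), 19, 15 and 15 had an unadjusted p under 0.05, against 6.09%, 6.29% and 5.67% of all genes, and DESeq2 called 8, 6 and 4, all higher, against 0.409%, 0.253% and 0.292%. PAN genes made up 6, 5 and 4 of those. The PAN medians were 1.65, 1.37 and 0.81, the A1 medians 1.39, 0.84 and 0.60, and the A2 medians 0.54, -0.04 and 0.17 in order of time, where all genes had medians of 0.00 to 0.01.

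Serpina3n was high in every glaucoma retina, at 21.8 and 30.6 CPM at 3D, 49.1 and 9.61 at 2W and 17.6 and 16.7 at 6W against 1.82 and 1.44 in naïve retina (log2 fold change 4.07, standard error 0.66, edgeR adjusted p = 0.346 at 3D). Gfap had 47.7 and 36.7 CPM at 3D, 47.6 and 40.4 at 2W and 30.5 and 26.2 at 6W, all above naïve (log2 fold change 1.26, standard error 0.17, edgeR adjusted p = 0.202 at 3D). Steap4, a metalloreductase of inflamed tissue, had 0.0776 and 0.177 CPM in naïve retina and 11.2 and 8.97 at 6W (log2 fold change 6.27, standard error 1.09, edgeR adjusted p = 0.478). Lcn2, a siderophore-binding acute phase protein, had 3.88 and 4.42 CPM in naïve retina, 16.4 and 83.1 at 3D, 135 and 20.1 at 2W and 156 and 115 at 6W (log2 fold change 5.02, standard error 1.05, edgeR adjusted p = 0.634). The glaucoma pools lay above the naïve pools for all 4 genes, and the 2 pools lay far apart for Lcn2 at 3D and 2W and for Steap4 at 2W. After crush, Lcn2 had 29.7 and 4.05 and Steap4 0.89 and 0.654 CPM at 3D. Between 6W and 3D of glaucoma no member passed in retina (0.0129% of all tested genes), with 8 at an unadjusted p under 0.05 (8.0% of all genes), all lower at 6W, and 0 called by DESeq2 (0.235%).

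**Figure D5:**
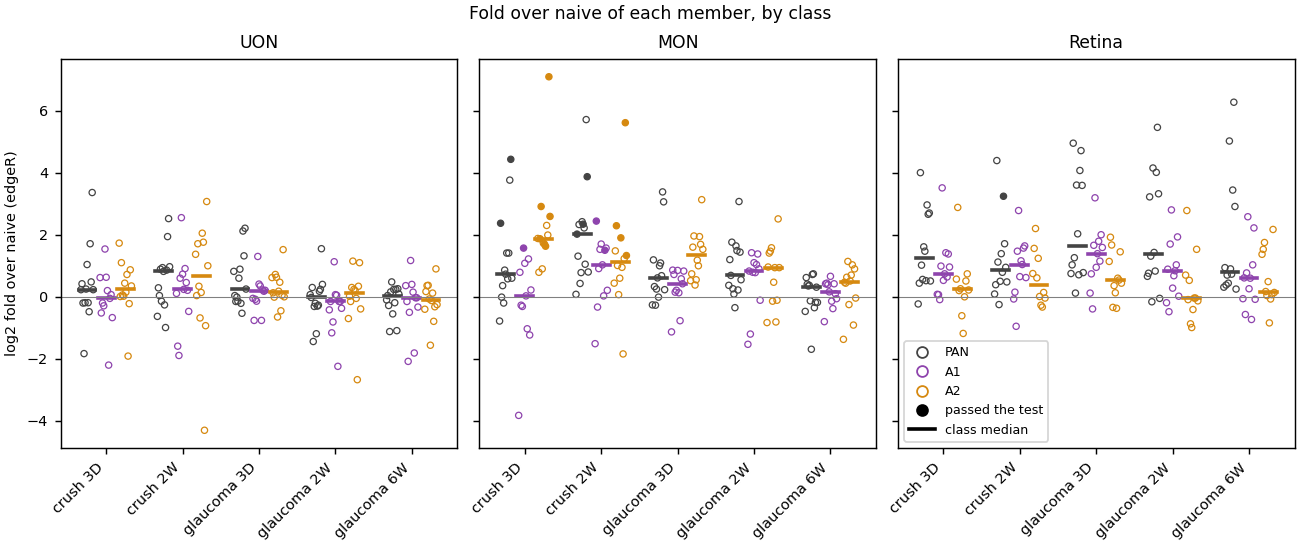
Log2 fold change over naïve (edgeR) of each tested member in UON, MON and retina at the 5 injury times, PAN genes in grey, A1 in purple and A2 in orange, with class medians as bars and filled points for members that passed the test. Filled points occur in MON after crush, 9 at each time, and once in retina at crush 2W, and A2 genes have the highest median in MON at crush 3D while PAN genes have it in retina at all 5 times except crush 2W, where A1 genes have it.

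Set against each other at matched times, crush and glaucoma gave no call among the members in the main edgeR fits. In MON, 0.0162% of all tested genes passed at 3D and 0.0485% at 2W, with 7 and 9 members at an unadjusted p under 0.05 (10.4% and 7.51% of all genes) and 2 and 2 called by DESeq2 (1.33% and 0.857%). In UON the shares were 0.00% and 0.0418%, with 2 and 12 members at an unadjusted p under 0.05 (1.07% and 10.2%) and 0 and 4 by DESeq2 (0.0286% and 1.28%). In retina they were 0.00810% and 0.113%, with 6 and 7 members at an unadjusted p under 0.05 (4.34% and 8.12%) and 0 and 1 by DESeq2 (0.0843% and 0.426%). The members DESeq2 called were Ggta1 and Cd44 at 3D and Fbln5 and Timp1 at 2W in MON, and Cd14, Tm4sf1, Ptx3 and S100a10 at 2W in UON, all higher after crush, and Steap4 at 2W in retina, lower after crush. In MON, Timp1 at 2W had 109.9 and 83.2 CPM after crush and 28.3 and 16 in glaucoma (log2 fold change 2.19, standard error 0.62, edgeR adjusted p = 0.408). Cd44 at 3D had 219 and 178 CPM after crush and 149.7 and 54.7 in glaucoma (log2 fold change 1.08, standard error 0.31, edgeR adjusted p = 0.357). For both genes the crush pools lay above the glaucoma pools. In UON, S100a10 at 2W had 308 and 729 CPM after crush and 113 and 149.5 in glaucoma (log2 fold change 1.91, standard error 0.41, edgeR adjusted p = 0.295). Of the fits with 1 pool left out, only the one without the female crush pool called members in UON at 2W. The crush group was then only the male pool that stood apart, with its spread taken from the other groups. In retina, Steap4 at 2W had 0.392 and 0.45 CPM after crush and 11.9 and 1.35 in glaucoma (log2 fold change -3.84, standard error 0.86, edgeR adjusted p = 0.223).

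Genes upstream of the classes were described from lists of known signals. Of 6 genes (Il1a, Tnf and the C1q chains, which induce the A1 state, and C3, its complement marker), the complement genes C1qb and C1qc rose in MON at crush 2W, by log2 fold changes of 2.14 and 2.24 (edgeR adjusted p = 0.0499 and 0.047), and none of the 6 passed at 3D, where DESeq2 called C1qa, C1qb, C1qc and Il1a higher. C3 had a log2 fold change of -1.66 at 3D and 2.59 at 2W in MON (edgeR adjusted p = 0.25 and 0.119). Of 12 genes of the gp130 and STAT3 pathway, the cytokine Lif and the feedback inhibitor Socs3 rose in MON at both crush times, Lif by 4.67 and 3.26 and Socs3 by 2.99 and 1.83 on the log2 scale (edgeR adjusted p = 0.0147 and 0.0444 for Lif, 0.00737 and 0.0308 for Socs3). Of 12 interferon response genes, Psmb9 and Tap1, which serve antigen presentation as Psmb8 does, rose in MON at crush 2W and none at 3D. In naïve UON, Irf1, Irf7, Irf9 and Tap1 of that list were higher than in naïve MON. No gene of these 3 lists passed in UON or retina after crush, or in any tissue in glaucoma. By DESeq2, MON in glaucoma had Lif, Socs3 and Il1a higher at 3D and Il1a, C3, Tap1, Psmb9 and Nlrc5 at 2W. In retina DESeq2 called C1qb, C1qc and Stat3 higher at crush 3D, the 3 C1q chains, Cntf, B2m, Ifit1 and Irf9 at crush 2W, the 3 C1q chains, Socs3, Stat3, B2m and Irf9 at glaucoma 3D and Stat3 at glaucoma 2W. In UON it called the 3 C1q chains, Osm and B2m higher at crush 2W and Ifit1 lower at glaucoma 2W. In MON after crush it also called Cntf, Jak2 and Ifit3 lower and Psmb9 higher at 3D, and the C1q chain C1qa, Il1a and B2m higher and Il6 lower at 2W.

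The remaining members passed after no injury, and several of them differed widely between the pools of a group. Of the A1 genes, H2-D1, an MHC class I chain, had 758 and 718 CPM in naïve MON, 1313 and 1619 at crush 3D and 2831 and 1869 at crush 2W (log2 fold change 1.70, standard error 0.38, edgeR adjusted p = 0.0663 at 2W). In glaucoma it had 1347 and 1379 CPM at 3D, 1516 and 1692 at 2W and 1344 and 1073 at 6W, so that all 10 injured MON libraries lay above both naïve ones. This pattern, given also for H2-T23, Gbp2 and Cd109, sets all injured libraries of a tissue against the same 2 naïve pools. Low values in those 2 pools alone can give it, and the share of all genes with it was not counted. H2-T23, a nonclassical MHC class I chain, had 8 and 6.15 CPM in naïve retina and 20.1 and 16.6 at glaucoma 3D (log2 fold change 1.39, standard error 0.24, edgeR adjusted p = 0.424), and all 10 injured retina libraries lay above both naïve ones. Gbp2, an interferon-inducible GTPase, had 2.37 and 1.61 CPM in naïve retina and 5.41 and 6.86 at glaucoma 3D, and all 10 injured retina libraries were again above naïve. In UON the male crush 2W pool had 557 CPM of Gbp2, 135 of Iigp1 and 389.9 of Cxcl10, the highest UON values of all 3 interferon-inducible genes, against 189.5, 5.52 and 47.7 in the female pool of that group. Srgn, a proteoglycan of blood cell granules, had 23.8 and 86 CPM in MON at crush 2W against 37.5 and 41.4 in naïve MON, with overlapping pools.

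Of the PAN genes, Vim had 3087 and 3944 CPM in naïve UON and 7259 and 6564 at crush 2W, and its pools did not overlap (log2 fold change 0.97, standard error 0.34, edgeR adjusted p = 0.496). Cp had 186 and 134 CPM in naïve MON and 394 and 364 at crush 2W (log2 fold change 1.31, standard error 0.34, edgeR adjusted p = 0.0985). The small heat shock protein Hspb1 had 129 and 183 CPM in naïve MON and 238 and 288 at crush 2W (log2 fold change 0.78, standard error 0.36, edgeR adjusted p = 0.352). The 2W pools of Cp and Hspb1 lay above naïve. Lcn2 in MON had 1.43 and 33.3 CPM in the naïve pools, 58.2 and 17.5 at crush 3D and 232 and 36.3 at crush 2W, so that the naïve pools already differed widely. Aspg, an asparaginase, was highest in MON, at 33.1 and 62.2 CPM in naïve MON and 25.2 and 25.7 at crush 3D.

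Of the A2 genes, Cd109, a membrane protein that binds TGF-beta, had 97.7 and 77.9 CPM in naïve MON and 195 and 273 at crush 2W (log2 fold change 1.48, standard error 0.34, edgeR adjusted p = 0.0711). All 10 injured MON libraries lay above naïve, as for H2-D1. Sphk1 had 2.16 and 7.76 CPM in naïve MON, 14.8 and 13.1 at crush 3D and 16.8 and 14.7 at glaucoma 3D, and both 3D groups lay above naïve. Emp1, an epithelial membrane protein, had 25.5 and 22.2 CPM in naïve MON and 51.8 and 97.8 at glaucoma 2W (log2 fold change 1.58, standard error 0.43, edgeR adjusted p = 0.375). B3gnt5, an enzyme of glycolipid synthesis, stayed between 0 and 5.14 CPM in all 36 libraries, and the transporter Slc10a6 between 0 and 6.78 CPM.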

How the data were processed

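The 36 bulk RNA-seq libraries, each a pool of 2 mice of 1 sex, came from retina and both nerve regions. The authors aligned reads with HISAT2 v2.2.1 to GRCm38, assembled with StringTie v1.3.0 against Gencode M25 and deposited estimated counts per gene, which hold whole numbers, and FPKM values per sample. A few deposited FPKM values fell below 0 and were treated as a score, with 15 in 13 libraries set to 0. The strand setting is not given in the sources used here, and transcript-level columns were not used.

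Members were matched by symbol. The members and all gene lists were chosen with earlier results of these data known. All 36 members are named, with genes of other lists where they passed. Genes were filtered with filterByExpr (minimum count 10, minimum total 15), scaled by TMM and tested with the edgeR 4.0.16 quasi-likelihood test in R 4.3.3 with terms for group and sex, and p-values were adjusted by Benjamini-Hochberg over all genes tested. Naïve regions, crush and glaucoma were fitted separately, crush against glaucoma in 1 fit per tissue, and the nerve regions together for response differences. The scripts were tested on simulated data. Since pools are the replicates, p-values measure the spread between pools only, 2 a group. Residual degrees of freedom were 2 to 7.

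Alternatives were DESeq2 1.42.0, its size factors, no filter on low counts, no sex term, counts divided by 4 (each estimated count stands for a median of 75.0 covered bases, so counts depend on the read length set by the authors), 1 fit over all 36 libraries, each library left out in turn, and the mouse pool as a block between nerve regions. The study's methods state that the tissues of a group came from the same mice, which pairs the libraries. The deviations of paired UON and MON libraries correlated at -0.01 to 0.24, over 0.1 in 3 of 6 groups. Replicate libraries correlated at 0.888 to 0.976 and had identical counts in at most 0.31% of detected genes, so each was kept as a sample. CPM are given per gene after TMM scaling.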

Additional observations from a re-analysis of the deposited data

Results flagged for a closer look

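In these cases both pools of a nerve region lay on 1 side of naïve and both pools of retina on the other at the same time and injury. The differences between tissues were not tested, and values are log2 fold changes of group over naïve from edgeR. With 2 pools against 2, pools can separate in this way with no difference between groups. The share of all genes with this pattern was not counted, so the list is not a result about the members. After crush at 3D, Cxcl10 had -1.83 in UON and 4.00 in retina, Serping1 -1.23 in MON and 1.38 in retina, and Ptgs2 1.73 in MON and -1.18 in retina. After crush at 2W, S1pr3 had -0.99 in UON and 0.79 in retina, and S100a10 had 1.76 and 0.95 in UON and MON, with -0.33 in retina. In glaucoma at 3D, S1pr3 had -0.53 in UON and 0.71 in retina, and Amigo2 -1.13 in MON and 0.12 in retina. At 2W, Osmr had -0.30 in UON and 1.43 in retina, Gfap -0.31 and 1.31, and Gbp2 -0.81 and 1.70. At 6W, Steap4 had -1.09 in UON and 6.27 in retina, S1pr3 -0.19 and 0.73, and Tm4sf1 -0.25 and 0.14, while Serpina3n had -0.35 in MON and 3.44 in retina, and B3gnt5 -1.37 and 1.37. The UON value of Cxcl10 rests on the female naïve pool: UON had 204 and 38.8 CPM in naïve and 38.4 and 28.5 at crush 3D, and the value ranged from -3.01 to 0.68 with 1 of the 4 libraries left out. Several of these values are small beside their standard errors, and Cxcl10 in retina and B3gnt5 in all tissues rest on few reads.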

How the results depend on the processing

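The direction of every called member was the same under all alternatives, and counts moved by over 1.5 times as follows, with causes not tested. The shares of all genes are given above for DESeq2. For the other settings they are not given, so a count there may reflect a setting that calls more or fewer genes in general, which was not tested. DESeq2 called 18 members in MON at crush 3D, 17 at 2W and 7 between them, 5 and 8 in retina and 2, 5 and 1 (2W over 3D) in UON after crush. In glaucoma it called 6 and 8 in MON (3D, 2W) and 4 at 6W over 3D, 8, 6 and 4 in retina, and 2, 1, 1 and 4 (6W over 3D) in UON. For crush over glaucoma it called 2 and 2 in MON, 1 in retina at 2W and 4 in UON at 2W, and for UON minus MON 4 and 4 after crush and 3 in glaucoma at 2W. With no filter on low counts, 22 members passed between naïve UON and MON, 15, 18 and 9 in MON after crush (3D, 2W, 2W over 3D), 1 and 3 in retina, 1 and 1 in UON, 1 in MON in glaucoma at 2W, 2, 2 and 2 in retina, 2 in UON at 3D and 2 at 6W over 3D, 2 and 2 for crush over glaucoma in MON, 1 in retina and 1 in UON at 2W, and 4 and 7 for UON minus MON after crush. One fit over all 36 libraries called 1 in MON at crush 2W over 3D, 1 and 2 in UON after crush, 2, 1 and 1 in retina in glaucoma, 1 in UON for crush over glaucoma at 2W and 3 for UON minus MON at crush 2W. That fit also lost the calls of Cd14, Ggta1 and Ptx3 in MON at crush 3D and of Tgm1, Cd14, Tm4sf1 and Ptx3 at 2W, Serping1, Ptx3, S100a10, Cd109 and Timp1 between naïve UON and MON, Fkbp5 (UON over retina) and Fbln5 (MON over retina). DESeq2's size factors in edgeR lost Cd14 and Ggta1 in MON at crush 3D and Tm4sf1 at 2W. Retina at crush 2W had 2 calls with no sex term and 2 with counts divided by 4. With the mouse pool as a replicate block, UON minus MON at crush 2W had 2 calls, and the block changed no other count.

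With 1 library left out, the other pool of its group being assumed to vary like the rest, the counts ranged from 0 to 13 in MON at crush 3D, 0 to 18 at 2W and 1 to 11 between them, 0 to 2 and 1 to 3 in retina and 0 to 1 in UON at crush 3D and between 2W and 3D. They ranged from 0 to 2 in retina in glaucoma at 2W, 0 to 1 in UON at glaucoma 3D and at 6W over 3D, 0 to 2 for crush over glaucoma in MON at 3D, 0 to 1 in retina and 0 to 7 in UON at 2W, and 0 to 7 for UON minus MON at crush 2W. Naïve regions had 10 to 16 (UON over MON), 30 to 34 (UON over retina) and 27 to 30 (MON over retina). The remaining comparisons stayed at 0. The shares of all genes in the fits with 1 library left out are not given, so these counts cannot be read as a result about the members. With 2 pools a group, members with few reads, such as B3gnt5, Steap4 and Slc10a6, cannot show any but a large difference. Members with more reads were limited too. Timp1 in UON, at 31.5 and 29.7 CPM in naïve and 302 and 326 at crush 3D, did not pass, where 0.00% of all tested genes did. A comparison without a call therefore does not show that a member was unchanged.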
